A study of Mus musculus with 9 samples.

Results

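Cytochrome c oxidase, the last enzyme of the mitochondrial respiratory chain, carries several subunits for which the mouse genome holds more than one gene. The 8 genes described here were taken by symbol from the 55367 rows of the count table, of which 28776 had at least 1 count. Cox6a2, Cox7a1 and Cox8b encode the heart and skeletal muscle forms of subunits VIa, VIIa and VIII. Cox6a1, Cox7a2 and Cox8a encode the ubiquitous forms of the same subunits. Cox4i1 and Cox4i2 encode the ubiquitous and the hypoxia-regulated form of subunit IV. All 8 were found, and all 8 passed the filter on low counts.

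Bulk RNA of mouse left ventricle, infarct core and its surroundings included, was sequenced in 3 libraries of each of 3 groups. The MI+BPD group had a myocardial infarction and was treated with an agent that the labels call BPD and do not spell out. The MI group had the infarction without that agent, and the Sham group had the operation without infarction. The tissue was taken at day 14 after infarction, and no separate time is given for Sham. The study asked whether BPD given in the proliferative phase of healing acts on fibroblast activation. The sources used here give no strain, age, genotype, dose or pooling of animals, and a sham heart has no infarct core, so the part of the ventricle differs along with the operation. Since nothing states that libraries came from separate animals, the p-values measure only the spread between these libraries.

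The enzyme passes electrons from cytochrome c to oxygen and pumps protons across the inner mitochondrial membrane. Its catalytic core is encoded by mitochondrial DNA, and the nuclear subunits around it adjust activity and stability. In mammalian heart the muscle forms of VIa and VIIa replace much of the ubiquitous form after birth. The mouse also has a muscle form of subunit VIII, whereas the human COX8B gene is a pseudogene. Cox4i2 is known for expression in lung and in pericytes, the contractile cells around capillaries, and for its link to oxygen sensing. Cox7a1 and Cox8b are also abundant in brown fat.

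Total counts ran from 17006222 to 17424302 in MI+BPD, from 19101748 to 19269072 in MI and from 14451410 to 17703461 in Sham. Transcripts of mitochondrial DNA took 17.6% to 25.7% of the counts in MI+BPD, 11.4% to 18.2% in MI and 34.4% to 35.2% in Sham. The mean log2 CPM (counts scaled to library size with edgeR's TMM factors) of 12 ventricular cardiomyocyte genes, among them Myh6, Tnnt2 and Ryr2, was 11.29 to 11.89 in MI+BPD, 10.50 to 11.38 in MI and 12.70 to 12.75 in Sham. MI+BPD library 1 and MI library 3 were the highest of their groups in both measures. MI library 1 also held white adipocyte transcripts, with a sum of 149 CPM over Adipoq, Lep, Plin1, Retn, Cfd and Cidec, against at most 1.15 CPM in any other library. In bulk tissue, fewer cells of a type and less RNA per cell cannot be told apart.

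To show what lies upstream of genes that moved differently, the 250 bases before the annotated start are printed for the 5 genes matched in the RefSeq promoter table of build GRCm38.p6. Cox4i1, Cox4i2 and Cox6a2 had no match there, so the muscle forms shown are Cox7a1 and Cox8b only. Capitals mark matches to the motifs named below.
Cox8b: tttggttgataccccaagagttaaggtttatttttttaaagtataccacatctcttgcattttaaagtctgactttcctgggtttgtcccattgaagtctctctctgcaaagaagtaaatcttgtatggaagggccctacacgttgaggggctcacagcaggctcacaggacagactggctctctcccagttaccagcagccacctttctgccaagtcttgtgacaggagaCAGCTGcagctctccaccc
Cox8a: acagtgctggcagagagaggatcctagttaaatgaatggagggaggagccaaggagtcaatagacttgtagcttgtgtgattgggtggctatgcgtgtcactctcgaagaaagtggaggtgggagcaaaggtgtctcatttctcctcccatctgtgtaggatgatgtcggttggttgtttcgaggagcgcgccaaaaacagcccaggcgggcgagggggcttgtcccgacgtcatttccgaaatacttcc
Cox7a1: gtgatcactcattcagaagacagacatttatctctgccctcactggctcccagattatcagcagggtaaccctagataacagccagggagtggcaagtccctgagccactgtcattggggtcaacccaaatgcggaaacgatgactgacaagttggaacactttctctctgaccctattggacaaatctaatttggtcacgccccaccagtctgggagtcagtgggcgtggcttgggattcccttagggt
Cox7a2: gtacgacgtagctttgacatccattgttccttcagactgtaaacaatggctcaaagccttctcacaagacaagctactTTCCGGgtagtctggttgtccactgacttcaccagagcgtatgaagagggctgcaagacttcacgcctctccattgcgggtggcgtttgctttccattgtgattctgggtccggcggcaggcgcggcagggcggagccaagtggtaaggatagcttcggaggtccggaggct
Cox6a1: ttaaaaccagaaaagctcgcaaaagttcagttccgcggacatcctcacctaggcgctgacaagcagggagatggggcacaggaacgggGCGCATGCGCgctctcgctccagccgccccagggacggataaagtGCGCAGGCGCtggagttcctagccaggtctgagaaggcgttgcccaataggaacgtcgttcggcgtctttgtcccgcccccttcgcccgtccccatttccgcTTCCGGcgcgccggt

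The Cox8b sequence lies at chr7:140900447-140900696 on the minus strand and the Cox8a sequence at chr19:7217617-7217866 on the minus strand. Those of the other genes lie at chr7:30183921-30184170 on the plus strand (Cox7a1), chr9:79759854-79760103 on the minus strand (Cox7a2) and chr5:115348959-115349208 on the minus strand (Cox6a1). The Cox8b sequence held 1 CpG dinucleotide, and 7.9% of all windows held fewer. Cox7a1 held 4, near the middle of the distribution, with fewer in 37.8% of all windows. The ubiquitous forms held 11 in Cox8a, 14 in Cox7a2 and 26 in Cox6a1, against a median of 6 over all 32841 windows of the table. Motifs were searched on both strands of the 300-base window, which adds 50 bases after the start. CCGGAA, the core bound by the ETS factor GABP, was found in the windows of Cox6a1, Cox7a2 and Cox8a and in 14.9% of all windows. Of its 3 matches in Cox8a, 1 begins 4 bases before the start and runs past the last printed base, so it is not in capitals, and the others lie after the start. The motif of NRF1, a regulator of nuclear-encoded mitochondrial genes, was found at 2 places in Cox6a1 and in 4.604% of all windows. The E-box CAGCTG was found at 2 places and TATAAA at 1 place in Cox8b, with TATAAA and 1 E-box lying after the start, against 16.3% and 13.6% of all windows. None of these motifs was found in the Cox7a1 window. AAGGTCA, bound by oestrogen-related receptors, and a MEF2-like motif were found in none of the 5 windows and in 4.72% and 3.69% of all windows. None of the motifs overlaps another at these places. These matches describe letters and not bound sites.

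The comparison of MI with Sham addresses the state of the ventricle after infarction. The 3 muscle forms fell, each to between 0.19 and 0.25 of its Sham level. Cox4i1 fell to 0.29 and Cox7a2 to 0.35 of its Sham level. Cox4i2 fell by less, and Cox6a1 and Cox8a did not pass the test. Of the 8 genes, 6 were lower and 0 higher at an adjusted p under 0.05 (edgeR quasi-likelihood test, Benjamini-Hochberg over 15138 genes), where 68.9% of all genes tested were called and 31.9% were called lower. The median log2 change was -1.65 over the 8 genes and 0.07 over all genes tested. The libraries of MI and Sham did not overlap for the same 6 genes, against 74.4% of all genes.

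Cox7a1, the muscle form of subunit VIIa, had the largest change of the 8. It had 51.0, 74.6 and 133 CPM in MI, against 442, 472 and 455 CPM in Sham. The highest MI library, number 3, was still below every Sham library. The log2 change was -2.41 (SE 0.36, adjusted p = 0.00031, edgeR). Cox6a2, whose product binds adenine nucleotides and tunes the enzyme in striated muscle, had 153, 174 and 318 CPM in MI, against 867, 953 and 962 CPM in Sham. MI library 3 again stood above the other MI libraries and below Sham, and the log2 change was -2.11 (SE 0.30, adjusted p = 0.00026, edgeR). Cox8b, the muscle form of the small subunit VIII, had 58.0, 72.1 and 129 CPM in MI, against 338, 367 and 348 CPM in Sham. The groups were apart in every library, with a log2 change of -2.02 (SE 0.30, adjusted p = 0.00032, edgeR).

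Among the ubiquitous forms, Cox4i1, an early-assembling subunit that carries allosteric sites, had 287, 329.8 and 502 CPM in MI, against 1208, 1283 and 1338 CPM in Sham. It fell by 1.78 on the log2 scale (SE 0.24, adjusted p = 0.00021, edgeR), with no overlap between the groups. Cox4i1 shares 154 exon bases with Emc8 on the opposite strand. Since the strand setting of the counting is not known, reads there cannot be told apart, but Emc8 held 3146 counts over all 9 libraries, against at least 7240 counts of Cox4i1 in each. Cox7a2, the ubiquitous partner of Cox7a1, had 72.3, 86.1 and 132 CPM in MI, against 248, 276 and 306 CPM in Sham. It fell by 1.52 on the log2 scale (SE 0.22, adjusted p = 0.00028, edgeR), and its lowest Sham library was above its highest MI library.

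The remaining pair of ubiquitous forms gave much smaller differences. Cox6a1, the partner of Cox6a2, had 32.03, 37.4 and 36.6 CPM in MI, against 32.6, 43.1 and 42.8 CPM in Sham. The groups overlapped because Sham library 1 lay among the MI libraries, and the log2 difference was -0.16 (95% interval -0.42 to 0.09, adjusted p = 0.231, edgeR). Without Sham library 1 the difference was -0.29 and passed the test (adjusted p = 0.0238, edgeR). Cox8a, the partner of Cox8b, had 34.8, 46.9 and 45.4 CPM in MI, against 45.2, 49.8 and 50.7 CPM in Sham. These groups overlapped as well, and the log2 difference was -0.20 (95% interval -0.47 to 0.08, adjusted p = 0.172, edgeR). Scaling by library totals alone raised the median of all genes to 0.81 on the log2 scale, and the differences of Cox6a1 and Cox8a became 0.57 and 0.53 (adjusted p 0.0013 and 0.0014, edgeR), both still below that median. Of the 31-base words of Cox6a1, 23.8% also occur in AC148174.2, a transcribed pseudogene not analysed here, so that reads of the 2 genes may have been mixed.

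Cox4i2 was the least abundant of the 8, with 68 to 126 reads per library. It had 2.85, 4.03 and 5.80 CPM in MI, against 6.22, 6.65 and 6.33 CPM in Sham. MI library 3 came close to the lowest Sham library, and the log2 change was -0.60 (SE 0.23, adjusted p = 0.0374, edgeR). The call was lost when any Sham library, MI library 1 or 2, or MI+BPD library 2 or 3 was left out, with the adjusted p between 0.0529 and 0.0954 (edgeR) and the log2 difference between -0.38 and -0.62. Scaled by library totals alone, its log2 difference turned to 0.11.

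**Figure D1:**
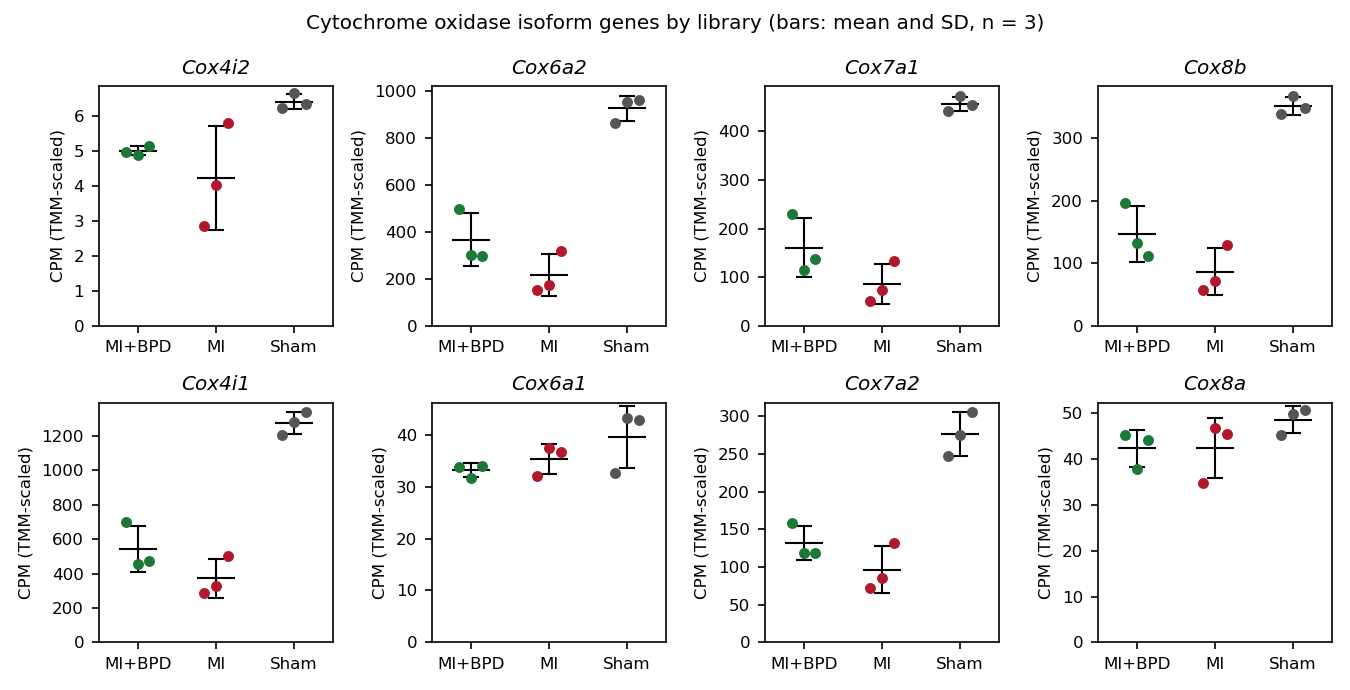
CPM of each gene by library (points) in MI+BPD, MI and Sham, with mean and SD (n = 3 each), each panel on its own linear axis from 0; the upper row holds Cox4i2 and the muscle forms and the lower row the ubiquitous form of the same subunit. Cox6a2, Cox7a1, Cox8b, Cox4i1 and Cox7a2 are highest in the 3 Sham libraries, whereas the Cox6a1 and Cox8a points of MI and Sham overlap.

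Levels of different genes were compared as CPM per kilobase of a single annotated transcript. In Sham the order was Cox4i1 (1713 ± 87.7), Cox6a2 (1364 ± 77.3), Cox7a1 (1161 ± 37.6), Cox8b (974 ± 41.1), Cox7a2 (420 ± 44.7), Cox8a (88.3 ± 5.36), Cox6a1 (69.2 ± 10.5) and Cox4i2 (8.80 ± 0.305) CPM per kilobase (SD, n = 3). The muscle forms therefore made up most of the VIa, VIIa and VIII transcripts of the sham ventricle. In MI, Cox4i1 (500.3 ± 153), Cox6a2 (316 ± 132), Cox8b (240 ± 104), Cox7a1 (219 ± 107) and Cox7a2 (147 ± 47.4) came in this order in every library. The intervals of mean ± SD of neighbours in that order overlapped, with MI library 3 the highest of its group for each of these genes. Cox8a (77.0 ± 11.96) and Cox6a1 (61.9 ± 5.07) followed, and Cox4i2 (5.81 ± 2.04) was lowest. MI+BPD kept Cox4i1 (729 ± 181) and Cox6a2 (541 ± 168) at the top, with Cox7a1 (409.6 ± 155) and Cox8b (407 ± 123) level with each other. Cox7a2 had 200.3 ± 35.2, Cox8a 77.1 ± 7.32, Cox6a1 58.0 ± 2.37 and Cox4i2 6.87 ± 0.176 CPM per kilobase in MI+BPD.

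The ratio of reads of the 2 forms of a subunit within a library does not depend on the scaling of the library, and serves to compare groups rather than the levels of the 2 genes. The mean ratio was lower in MI than in Sham for VIa, VIIa and VIII, and lowest in MI of the 3 groups. The Cox6a2 to Cox6a1 read ratio was 14.7, 9.63 and 8.82 in MI+BPD, 4.79, 4.66 and 8.67 in MI, and 26.6, 22.1 and 22.5 in Sham. No library of one group lay within the range of another, although MI library 3 came within reach of MI+BPD library 3. The Cox8b to Cox8a read ratio was 4.34, 3.48 and 2.53 in MI+BPD, 1.67, 1.54 and 2.84 in MI, and 7.46, 7.36 and 6.86 in Sham. Here MI library 3 lay above MI+BPD library 3, and Sham was apart from both groups. The Cox7a1 to Cox7a2 read ratio moved least, with 1.45, 0.977 and 1.15 in MI+BPD, 0.706, 0.867 and 1.01 in MI, and 1.79, 1.71 and 1.48 in Sham. Both VIIa genes fell, so the ratio shows the part by which Cox7a1 fell further.

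Tested over the 3 groups by exact permutation, the log2 ratios differed with p = 0.00357 for Cox6a2 to Cox6a1, the smallest p this design allows. The exact permutation p was 0.00714 for Cox8b to Cox8a, 0.0107 for Cox7a1 to Cox7a2 and 0.0143 for Cox4i2 to Cox4i1, and after Benjamini-Hochberg adjustment over the 4 ratios each was 0.0143. Relative to Sham, the mean log2 ratio in MI differed by -2.03 for VIa, -1.90 for VIII and -0.96 for VIIa. For subunit IV the ratio of Cox4i2 to Cox4i1 differed by 1.16, because Cox4i1 fell further than Cox4i2. It was 0.00716, 0.0107 and 0.0109 in MI+BPD, 0.0100, 0.0123 and 0.0116 in MI, and 0.00519, 0.00522 and 0.00476 in Sham, with Sham below every other library. A 2-sided exact permutation of 3 libraries against 3 cannot go below 0.1, and each of these MI and Sham pairs gave that value (adjusted over 12 tests, 0.133).

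**Figure D2:**
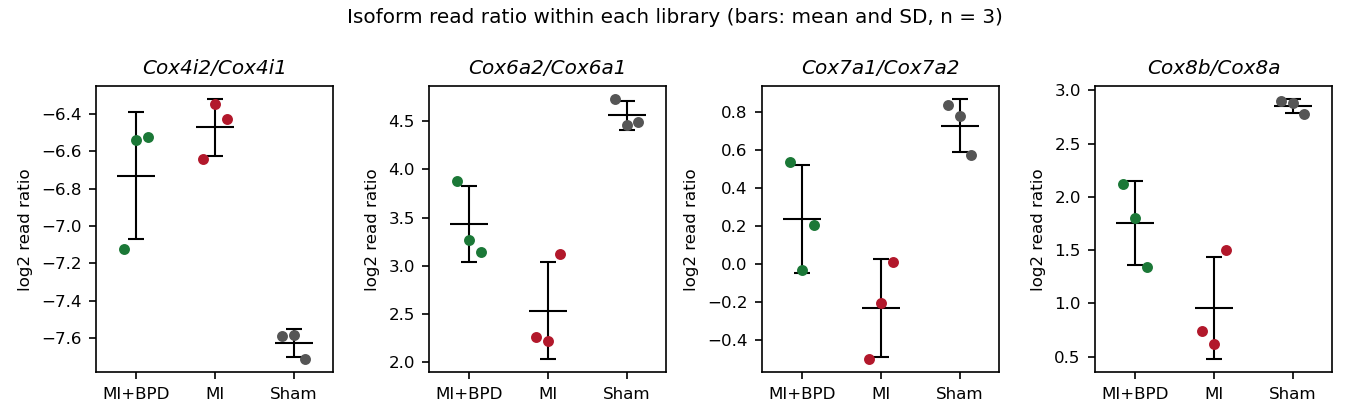
Log2 read ratio of the muscle or hypoxia-regulated form to the ubiquitous form within each library (points), with mean and SD (n = 3 each), in MI+BPD, MI and Sham; the axes differ between panels and do not start at 0. The ratio of Cox6a2 to Cox6a1 has means of 3.43, 2.53 and 4.56 in these groups, and that of Cox4i2 to Cox4i1 has means of -6.73, -6.47 and -7.63.

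Each gene was also set against the mean log2 CPM of the 12 cardiomyocyte genes in the same library, as a description without a test. On this scale Cox4i1 was level, with -2.33 ± 0.08 in MI and -2.40 ± 0.05 in Sham (SD, n = 3 each) and libraries that overlapped. Cox8b and Cox6a2 were slightly lower in MI, by 0.22 and 0.29 log2 units, and Cox7a1 was lower by 0.63. Cox7a2 was higher in MI by 0.33, Cox4i2 by 1.25, Cox8a by 1.68 and Cox6a1 by 1.74 log2 units. The cardiomyocyte mean itself was lower in MI, so an unchanged gene comes out higher on this scale. In the edgeR fit the log2 changes of these genes were -1.52 (Cox7a2), -0.60 (Cox4i2), -0.20 (Cox8a) and -0.16 (Cox6a1). The libraries of MI and Sham were apart for 7 of the 8 genes, which is close to the 94.7% of all genes for which they were apart on this scale. Cox4i1, Cox7a2 and the 3 muscle forms each moved within 0.63 log2 units of the mean of the cardiomyocyte genes. The median log2 change of those 12 genes was -1.90. The part of cell composition in these changes was not tested.

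**Figure D3:**
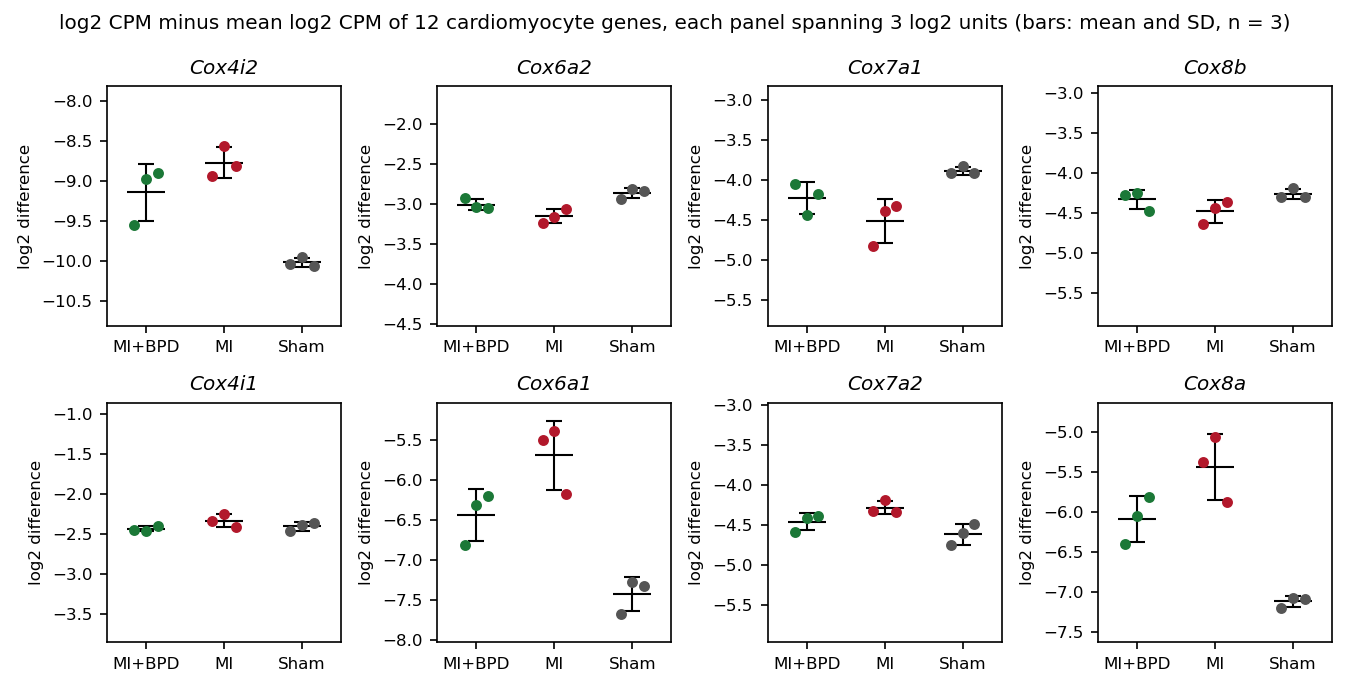
Log2 CPM of each gene minus the mean log2 CPM of 12 cardiomyocyte genes, by library (points) with mean and SD (n = 3 each), in MI+BPD, MI and Sham; every panel spans 3 log2 units. Cox4i1 is level over the groups, and Cox6a1 and Cox8a are lowest in Sham, where the cardiomyocyte genes are highest.

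MI+BPD was set against MI to ask what BPD did after infarction. None of the 8 genes was called, as was none of the 15138 genes tested (0% of all genes; smallest adjusted p 0.369, edgeR). At an unadjusted p under 0.05 the same test gave 2043 genes, or 13.5%, and 4 of the 8: Cox6a2, Cox7a1, Cox8b and Cox4i1. DESeq2 called 51 genes (0.337%) and none of the 8. Limma-voom, run with a weight estimated for each library, called 992 genes (6.55%) and those 4. The libraries of MI+BPD and MI overlapped for all 8 genes, while 13.9% of all genes had none overlapping.

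Every muscle form had a higher mean in MI+BPD than in MI. Cox7a1 had 230.1, 116 and 137 CPM in MI+BPD, against 51.0, 74.6 and 133 CPM in MI. MI library 3 was above MI+BPD library 2, and the log2 difference was 0.90 (95% interval 0.13 to 1.68, adjusted p = 0.369, edgeR). Cox6a2 had 499, 304 and 299.9 CPM in MI+BPD, against 153, 174 and 318 CPM in MI, a log2 difference of 0.77 (95% interval 0.12 to 1.43, adjusted p = 0.369, edgeR). Again MI library 3 lay above 2 of the MI+BPD libraries. Cox8b had 196, 132 and 112 CPM in MI+BPD, against 58.0, 72.1 and 129 CPM in MI, a log2 difference of 0.76 (95% interval 0.11 to 1.42, adjusted p = 0.369, edgeR). The overlap came from the same MI library, which lay above MI+BPD library 3.

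Of the ubiquitous forms, Cox4i1 had 698, 457 and 475 CPM in MI+BPD, against 287, 329.8 and 502 CPM in MI, a log2 difference of 0.54 (95% interval 0.01 to 1.08, adjusted p = 0.369, edgeR). Cox7a2 had 159, 118 and 119 CPM in MI+BPD, against 72.3, 86.1 and 132 CPM in MI, a log2 difference of 0.45 (95% interval -0.04 to 0.93, adjusted p = 0.384, edgeR). In both, MI library 3 lay within the MI+BPD range. Cox8a had 45.2, 37.8 and 44.2 CPM in MI+BPD, against 34.8, 46.9 and 45.4 CPM in MI, and Cox6a1 had 33.8, 31.6 and 34.0 CPM in MI+BPD, against 32.03, 37.4 and 36.6 CPM in MI. Their log2 differences were 0.00 (95% interval -0.27 to 0.27) and -0.09 (95% interval -0.35 to 0.16). Cox4i2 had 4.97, 4.88 and 5.13 CPM in MI+BPD, all within the 2.85 to 5.80 CPM of MI, a log2 difference of 0.24 (95% interval -0.26 to 0.75).

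In edgeR fits with 1 library left out, the count in this comparison changed only without MI library 3. Without it, 1353 genes (8.76%) were called and 5 of the 8 were higher in MI+BPD (edgeR): Cox7a1 by 1.36, Cox8b by 1.17, Cox6a2 by 1.17, Cox4i1 by 0.82 and Cox7a2 by 0.74 log2 units, with adjusted p between 0.0334 and 0.0391. MI+BPD library 1 had the highest value of its group for these 5 genes, and without it no gene was called and their log2 differences were 0.28 to 0.54. Leaving out MI library 1, which held the adipocyte transcripts, together with MI+BPD library 1 left differences of 0.12 to 0.29 and no call. The cardiomyocyte genes moved with these values: their median log2 difference was 0.66, 0 of 12 were called, and MI library 3 at 11.38 lay above MI+BPD libraries 2 and 3 at 11.30 and 11.29 in mean log2 CPM. Relative to those 12 genes, the muscle forms differed between MI+BPD and MI by 0.15 (Cox6a2), 0.15 (Cox8b) and 0.29 (Cox7a1) log2 units. The libraries were apart for Cox6a2, Cox6a1 and Cox7a2 on this scale, 3 of 8 genes, where 18.1% of all genes were. The part of muscle content in the difference was not tested.

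The log2 read ratios of MI+BPD and MI differed by 0.90 for Cox6a2 to Cox6a1 (2-sided exact permutation p = 0.1, the smallest possible; adjusted over 12 tests, 0.133). For Cox8b to Cox8a the difference was 0.80 and for Cox7a1 to Cox7a2 it was 0.47, both with an exact permutation p of 0.2 (adjusted 0.218). For Cox4i2 to Cox4i1 it was -0.26 with an exact permutation p of 0.4. The last of these ratios thus pointed away from the muscle pairs in sign and was within the spread of the libraries. Without MI+BPD library 1 and MI library 1 together, the Cox7a1 to Cox7a2 difference was 0.19.

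**Figure D4:**
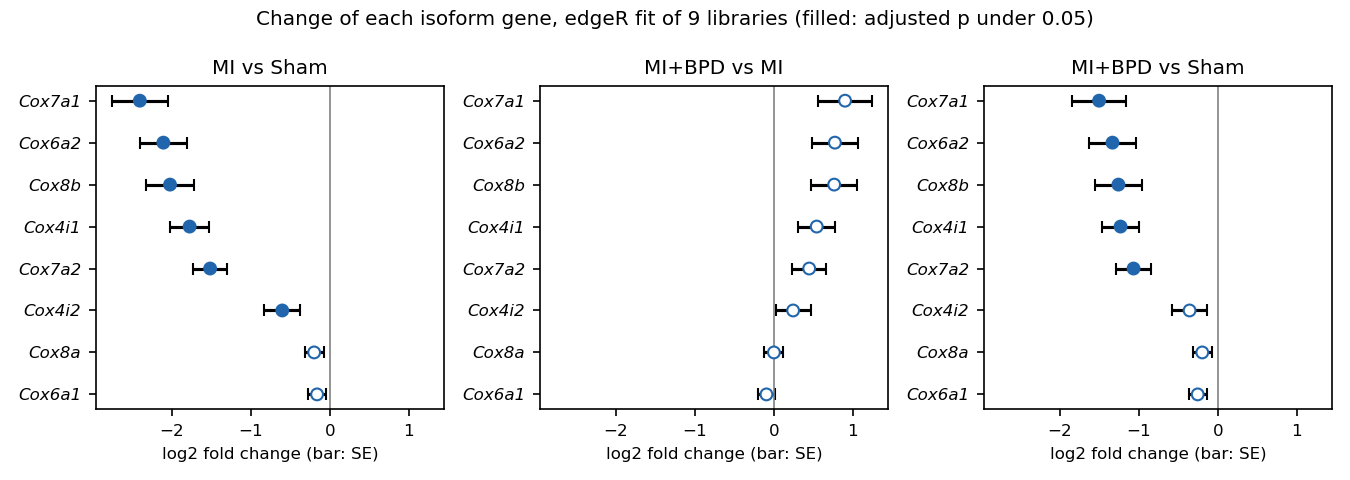
Log2 fold change of each gene with its SE in MI over Sham, MI+BPD over MI and MI+BPD over Sham, from edgeR fits of 9 libraries; filled points have an adjusted p under 0.05. Cox7a1 has the largest change in the first comparison (-2.41), no point is filled in the second, and Cox6a1, Cox8a and Cox4i2 are the open points of the third.

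MI+BPD was also compared with Sham, and these Sham libraries are the control of the MI comparison too. Of the 8 genes, 5 were lower and 0 higher, where 59.6% of all genes tested were called and 27.8% were called lower. Cox7a1 fell by 1.504 (SE 0.35, adjusted p = 0.00499), Cox6a2 by 1.33 (SE 0.29, adjusted p = 0.00406) and Cox8b by 1.26 (SE 0.29, adjusted p = 0.00531) on the log2 scale (edgeR). Cox4i1 fell by 1.23 and Cox7a2 by 1.07 (adjusted p 0.00224 and 0.00278, edgeR). In these 5 every MI+BPD library was below every Sham library. Cox6a1, Cox8a and Cox4i2 did not pass the test, with log2 differences of -0.25, -0.20 and -0.36 and adjusted p of 0.0813, 0.191 and 0.198 (edgeR). Cox6a1 passed without Sham library 1 (adjusted p = 0.0105, edgeR). The libraries of MI+BPD and Sham did not overlap for 7 of the 8 genes, Cox6a1 being the exception, where 68.5% of all genes did not. For Cox8a the margin was very small, from 45.16 CPM in the highest MI+BPD library to 45.20 CPM in the lowest Sham library. Relative to the cardiomyocyte genes, Cox4i1 (-0.03), Cox8b (-0.07), Cox6a2 (-0.15) and Cox7a2 (0.15) overlapped between MI+BPD and Sham, while 89.2% of all genes were apart. The cardiomyocyte genes themselves were lower in MI+BPD than in Sham, which raises an unchanged gene on that scale. On it Cox7a1 differed by -0.34, Cox4i2 by 0.88, Cox6a1 by 0.99 and Cox8a by 1.03 log2 units. The mean log2 read ratios of MI+BPD differed from Sham by -1.13 for VIa, -1.10 for VIII, -0.49 for VIIa and 0.90 for subunit IV.

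Most of the remaining nuclear subunit genes of the enzyme fell in MI. Of 12 other nuclear subunit genes, 10 were tested, and 8 were lower and 1 higher in MI than in Sham, with a median log2 change of -1.77. Over all genes tested, 31.9% were called lower. Subunits without a muscle form in mouse fell by similar amounts, with log2 changes of -1.90 for Cox7b, -1.81 for Cox6c, -1.80 for Cox7c, -1.78 for Cox5a, -1.77 for Cox5b and -1.59 for Cox6b1. Ndufa4, a subunit first assigned to complex I, fell by 1.85. Cox7a2l, which encodes a VIIa-related factor of supercomplex assembly, fell by 0.89. The exception in direction was Ndufa4l2, a paralog of Ndufa4 known as a hypoxia-induced gene, which rose by 0.69 (adjusted p = 0.00096, edgeR), with 26.2 CPM in MI against 16.2 CPM in Sham. Cox6b2, a testis form, did not pass at 2.15 CPM in MI and 1.34 CPM in Sham (adjusted p = 0.122, edgeR). The testis genes Cox7b2 and Cox8c had 9 and 0 counts over all libraries. In MI+BPD against MI, 0 of the 10 were called and the median log2 difference was 0.49.

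Of 22 tested genes for assembly and copper delivery, 19 were lower and 0 higher in MI than in Sham, with a median log2 change of -0.91. The share of all genes called lower, 31.9%, stands beside each list of this paragraph. Lrpprc, which stabilises mitochondrial messenger RNA, fell by 1.79, Cox10 and Cox15, which make haem A, fell by 1.78 and by 0.997, and Higd2a fell by 0.90. All 7 genes of cytochrome c and complex III were lower, with a median of -1.86. They include Cycs, which encodes cytochrome c and fell by 1.86, Uqcrc1, which fell by 1.98, Uqcrb, which fell by 1.87, and Uqcrc2, which fell by 1.83. Of 12 regulators of oxidative genes, 11 were lower and 0 higher, with a median of -1.10. Ppara, a lipid-sensing nuclear receptor, fell by 2.35, Esrrg, an oestrogen-related receptor, by 1.60, Mef2d by 0.81 and Gabpa, the DNA-binding part of GABP, by 0.66. None of the genes in these 3 lists was called in MI+BPD against MI.

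**Figure D5:**
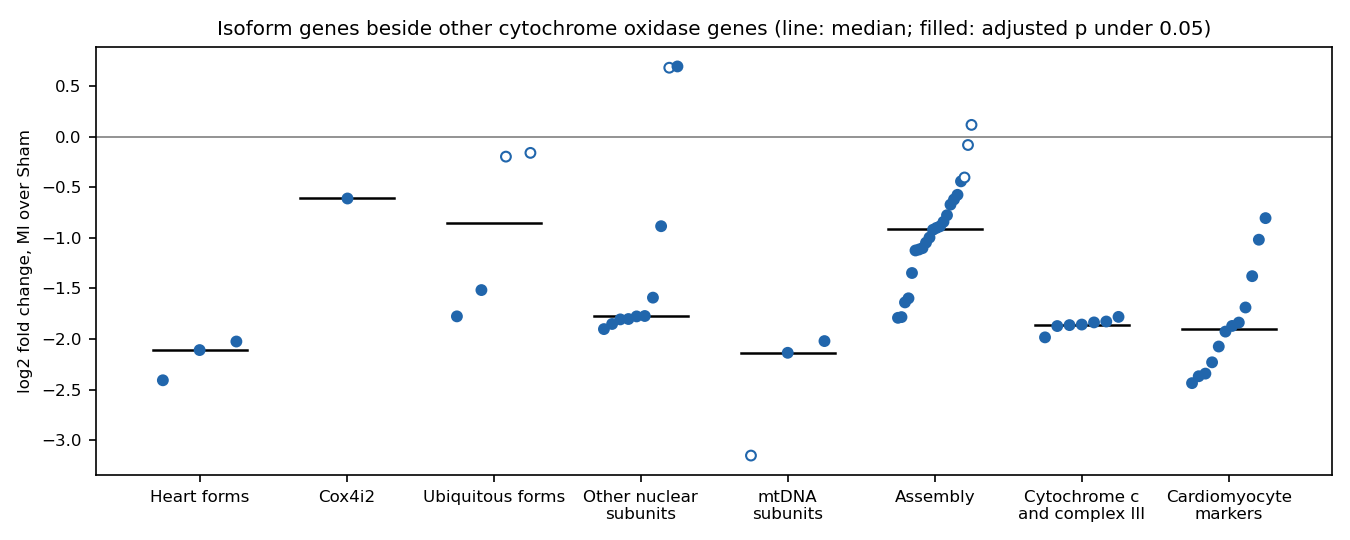
Log2 fold change in MI over Sham of the muscle forms, Cox4i2, the ubiquitous forms and other lists of related genes; each point is a gene, lines are medians, and filled points have an adjusted p under 0.05. Other nuclear subunits centre on -1.77, near the muscle forms (-2.11), and Cox6a1 and Cox8a are the open points near 0 among the ubiquitous forms.

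Genes linked to Cox4i2 moved in both directions, as did genes at large. Of 10 hypoxia regulators and factors reported at the COX4I2 promoter, 2 were higher and 6 lower in MI than in Sham. Over all 15138 genes tested, 68.9% were called, 5594 higher and 4835 lower, which applies to the pericyte markers below too. Hif1a, the oxygen-regulated transcription factor, rose by 0.71, while Epas1 fell by 1.05, Egln1, an oxygen-sensing prolyl hydroxylase, fell by 1.63 and Chchd2 fell by 1.38. Of 10 pericyte markers, 5 were higher and 4 lower in MI than in Sham, among them Pdgfrb, which rose by 1.504, Mcam by 1.01, Gja4 by 0.90 and Notch3 by 0.72. The 4 lower ones, named after their values were seen, had log2 changes of -1.71 (Abcc9), -0.91 (Kcnj8), -0.71 (Vtn) and -0.55 (Rgs5). The summed pericyte level was 1380 to 1695 CPM in MI+BPD, 1214 to 1435 CPM in MI and 1638 to 1944 CPM in Sham. Rgs5 and Abcc9, with means of 870 and 613 CPM in Sham, held the largest shares of the Sham sum. The mean log2 CPM of the 10 markers was 5.72 to 5.84 in MI+BPD, 5.65 to 5.80 in MI and 5.56 to 5.74 in Sham. By this measure Sham was lowest and not highest, with ranges that overlapped. The part of pericytes in the level of Cox4i2 was not tested.

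Other cell types moved along with the infarction. All 12 cardiomyocyte genes were lower in MI than in Sham, all 9 fibroblast and all 8 macrophage markers were higher, and 7 of 8 endothelial markers were lower. Over all 15138 genes tested, 5594 were called higher and 4835 lower. Summed fibroblast markers reached 22242 to 24008 CPM in MI+BPD, 16580 to 26072 CPM in MI and 1159 to 1343 CPM in Sham. Macrophage markers summed to 876 to 1147 CPM in MI+BPD, 686 to 1179 CPM in MI and 315 to 385 CPM in Sham. Smooth muscle markers were 3 higher and 1 lower of 7. Of the tissues besides heart that use the muscle forms, skeletal muscle markers were 2 higher and 2 lower of 5 tested. The log2 changes were 2.45 (Tnnt3), 2.05 (Acta1), -1.37 (Tnnt1) and -1.26 (Tnni2), and Acta1 had 558 CPM in MI against 134 CPM in Sham. Over all libraries Myh4 had 2 counts, Myog 21 and Myh2 29, and Myh1 and Actn3 did not pass the filter on low counts either. The brown adipocyte markers Ucp1, Elovl3 and Lhx8 had 3 counts each over all libraries, and Zic1 had 25, of which 12 were in 1 library. The 3 brown adipocyte markers tested split, with Dio2, which makes active thyroid hormone, rising by 5.30 and Cidea and Prdm16 falling by 1.37 and by 0.87. None of these marker genes was called in MI+BPD against MI.

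For each of the 8 genes, the 3 tested genes with the most similar pattern were taken as those with the smallest root mean square difference of centred log2 CPM over 9 libraries, out of 13493 candidates. The 9 points share libraries and groups, so the distances are descriptive. Cox4i1 was nearest to Ndufs3 (0.0172 log2 units), Sdhc (0.0202) and Cox5b (0.0315), which encode parts of complexes I, II and IV. Cox6a2 was nearest to Slc25a4, the heart ADP/ATP carrier (0.0422), mt-Nd2 (0.0443) and Nipsnap2 (0.0488). Cox8b was nearest to Mgst3 (0.0789), Efcab2 (0.0845) and Perm1, a muscle regulator of oxidative genes (0.0874). Cox7a1 was nearest to Plin5, a lipid droplet protein of oxidative tissue (0.0948), Pxmp2 (0.101) and Atp2a2, the calcium pump of the sarcoplasmic reticulum (0.106). Cox7a2 was nearest to Coq6, an enzyme of ubiquinone synthesis (0.0561), Samm50 (0.0584) and Ndufs5 (0.0593).

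The patterns of the genes that differed least between groups had other neighbours. Cox6a1 was nearest to Gtf3a (0.0626), Pgls (0.0632) and the ribosomal protein gene Rplp2 (0.0651), and Cox8a to Nr2f6 (0.0542), Rplp2 (0.0636) and Tesk1 (0.0694). Cox4i2 was nearest to Cystm1 (0.0753), Efr3b (0.109) and Bag2 (0.110). Within the 8 genes, Cox6a2 and Cox8b were nearest to each other (0.0755), as were Cox6a1 and Cox8a (0.103) and Cox4i1 and Cox7a2 (0.125). Cox7a1 was nearest to Cox6a2 (0.184), and Cox4i2 to Cox8a (0.250). Cox7a2 was thus closer to Cox4i1 than to its own muscle partner Cox7a1 (0.437), and Cox6a1 was 0.887 log2 units from Cox6a2.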

How the data were processed

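The authors deposited raw read counts per gene symbol for 9 libraries, with no normalization. Per the submitters' processing notes STAR was used, and mm10, GRCm39 and mm39 are named without a role; the sources used here name no counting program, strand setting or annotation. Total RNA came from TRIzol extraction and was read as paired ends, per the labels' protocols. The depth, 14451410 to 19269072 counts per library, limits precision most for Cox4i2.

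Counts were fitted in R 4.3.3 with edgeR 4.0.16 (TMM factors, filterByExpr with minimum count 10 and minimum total 15, robust quasi-likelihood fit by group of all 9 libraries, 6 residual degrees of freedom). Tests were 2-sided, and p was adjusted by Benjamini-Hochberg over the 15138 genes tested and called under 0.05. SEs follow from the F statistic. Isoform ratios added 0.5 to each count, and log2 CPM used a prior count of 2. Lengths come from the first-numbered GENCODE M21 transcript, and promoters from RefSeq. DESeq2 1.42.0 and limma 3.58.1 (voom with a quality weight estimated for each library) were alternatives, with other scalings and filters, a replicate block, and each library left out in turn. The steps were tested on simulated data. The 8 genes and all lists were chosen with earlier results of these data known. Genes of other lists are named as those of smallest adjusted p in MI against Sham, up to 4 per list, and all subunits a count turns on.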

Additional observations from a re-analysis of the deposited data

How the results depend on the processing

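In MI+BPD against MI the count of genes called was 0 in the fit described, 51 with DESeq2, 992 with limma-voom and 0 to 1353 with 1 library left out. Of the 8 genes, 4 were called with limma-voom and 0 to 5 with 1 library left out, the upper values being those without MI library 3. The exact 3-group p of Cox4i2 to Cox4i1 was 0.0107 to 0.05 with 1 library left out, 0.05 being without any of the Sham libraries. The Cox7a1 to Cox7a2 difference of MI+BPD and MI was 0.19 without MI library 1 and MI+BPD library 1. Scaled by library totals alone, log2 differences changed sign in MI against Sham for Cox4i2 (0.11), Cox6a1 (0.57) and Cox8a (0.53), and in MI+BPD against Sham for Cox4i2 (0.17), Cox6a1 (0.27) and Cox8a (0.33). That scaling moved the share of higher calls in MI against Sham to 85.6%, against 53.6% in the fit described. The Cox8a difference of MI+BPD and MI, near 0, turned to -0.0459 with upper-quartile factors, -0.20 with library totals, -0.0062 with no filter, -0.0097 with a stricter filter, -0.0932 with limma-voom, -0.0138 with only the groups compared and -0.18 without MI library 1 and MI+BPD library 1, and ran from -0.12 to 0.0816 with 1 library left out. The cause of these shifts was not tested. Beyond the calls named with the results, Cox4i2 in MI against Sham lost its call with no filter (adjusted p = 0.0611), with only the groups compared (0.0517) and without MI library 1 and MI+BPD library 1 (0.0779); in MI+BPD against Sham, Cox6a1 gained one with limma-voom (0.0346), Cox4i2 with only the groups compared (0.0437) and Cox8a without MI library 1 and MI+BPD library 1 (0.0298), all by edgeR unless named. Between libraries with the same number, the correlation of deviations ran from -0.158 to 0.194 over 9 pairs. It passed 0.1 in 2, both of MI with MI+BPD (0.143 and 0.194). Pairs with different numbers ran from -0.277 to 0.207, and whether libraries of the same number belong together is not known. With the replicate number as a block, 10054, 0 and 8457 genes and 6, 0 and 5 of the 8 genes were called over Sham in MI, over MI in MI+BPD and over Sham in MI+BPD.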

Other observations

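The catalytic subunits encoded by mitochondrial DNA are given apart, because reads of mt-Co2 and mt-Co3 cannot be told from nuclear copies: 99.5% of the 31-base words of mt-Co2 also occur in Gm28661 and 99.9% of those of mt-Co3 in Gm28437. For mt-Co1 the largest such shares were 45.2% with Gm13340 and 29.6% with Gm29216. mt-Co1 fell by 2.02 on the log2 scale in MI against Sham (adjusted p = 0.00171, edgeR) and mt-Co2 by 2.14 (adjusted p = 0.00024, edgeR). Mean levels were 44973 CPM in MI and 182359 CPM in Sham for mt-Co1, against 35.8 CPM in MI and 157 CPM in Sham for mt-Co2. mt-Co3 did not pass (adjusted p = 0.0603, edgeR). Its counts were 22677, 1011 and 994 in MI+BPD, 591, 723 and 1228 in MI, and 1263, 2293 and 8565 in Sham, so MI+BPD library 1 and Sham library 3 stood far above their groups. mt-Co1 did not show this, with 1748235, 1196073 and 1227096 counts in MI+BPD and 1993964, 2116122 and 2355055 in Sham.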
